A study of Mus musculus with 14 samples.

Results

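The Fox and Sox transcription factor genes were described over the 7 groups of a study of Cdx2 in intestinal stem cells. Members were all genes whose symbol in the platform annotation was Fox with a subfamily letter from a to s and a number, or Sox and a number, without Sox2, Sox9 and Sox21. That gave 57 of 18820 genes measured by probe sets of 1 gene, of which 41 were Fox and 16 were Sox genes, each read on its probe set with the highest mean. Foxm1 and Foxp3 lay only on probe sets shared with other genes and are not among them. Levels are log2 RMA signals, in which 1 unit is 2-fold and background keeps silent genes above 0.

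RNA was measured on 14 Affymetrix Mouse Gene ST 1.1 arrays. The question was what loss of Cdx2, a homeobox factor that specifies intestine, does to intestinal stem cells. The samples came from organoids, which are self-organising epithelial cultures, and those of the sorted cells were clonal. For the whole organoids the sources differ, since the labels give them the genotype of the controls and the study's text describes them as wild type and grown from glands and crypts. Per the labels all control organoids had the genotype Cdx2-/fl / Lgr5-EGFP, and per the methods mice of the Lgr5-EGFP-CreERT2 line were of mixed C57Bl6j/CBA background and of either sex, so by the labels the controls also lacked 1 Cdx2 allele. Cre was driven by the stem cell gene Lgr5 and switched on in culture with 4-hydroxytamoxifen, to which the controls were not exposed. Sorted stem cells (SCs) were the Lgr5-EGFPhi cells of Cdx2null small intestinal organoids (Cdx2null SI SCs, n = 2), control stomach organoids (control Sto SCs, n = 2) and control small intestinal organoids (control SI SCs, n = 3), all kept in stomach medium with EGF, Noggin, R-spondin, Wnt, Fgf and gastrin (Sto medium). Whole control organoids, unsorted, were Sto organoids in Sto medium (n = 1) and in SI medium (n = 2), and SI organoids in Sto medium (n = 1) and in SI medium (n = 3), where SI medium holds only EGF, Noggin and R-spondin. The methods call the samples independent but do not tie them to animals, so p-values measure the spread between these samples.

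Forkhead (Fox) and Sry-related (Sox) factors each bind DNA through a conserved domain, the winged helix or the HMG box. FoxA factors are pioneer factors of the endoderm that open chromatin for other regulators. FoxO factors act below insulin and PI3K signalling, SoxF factors mark endothelium and endoderm, SoxE factors mark neural crest and glia, and SoxD factors lack a transactivation domain and work through partners.

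Several arrays bore on every result. Cdx2 itself read 8.41 and 4.88 on the Cdx2null SI SC arrays, 5.08 and 4.67 on the control Sto SC arrays and 9.04, 10.05 and 8.94 on the control SI SC arrays. The library labelled Cdx2null SI SCs 1 kept a Cdx2 signal nearer the control SI SCs. Per the methods the Cdx2 probes also cover exon sequence that the deletion leaves in place, so this signal alone does not check the deletion. Intestinal markers other than Cdh17 were low on Cdx2null SI SCs 1. Cdx1 read 4.79, Isx 4.02, Muc13 3.73, Reg4 3.41 and Olfm4 3.79, each under every control SI SC array. Cdh17 read 8.44 there, against 6.04 on the other Cdx2null SI SC array and 4.02 and 6.19 on the control Sto SC arrays. On the control SI SC arrays Cdh17 read 11.31, 11.51 and 11.09. The mean of 9 intestinal epithelial markers was 4.28 to 4.60 on the Cdx2null SI SC arrays, against 8.05 to 9.25 on the control SI SC arrays. By Xist and Kdm5d, 2 of 3 control SI SC arrays were male, whereas all Cdx2null SI SC and control Sto SC arrays were female. Among organoids the sole array of Sto organoids in Sto medium was male and the others were female. The library labelled SI organoids SI med 1 went against its label, with Cdx2 at 5.52 against 9.92 and 9.67 on the other arrays of that group, and with a mean of 9.41 for 9 gastric epithelial markers. On control SI SCs 3 and SI organoids SI med 3 all values were logs of rounded linear signals, so these arrays had been exported differently from the others. Their upper quartiles over genes were 7.96 and 8.02, against 8.35 to 8.45 on the other arrays, so bright genes tended to read lower on them. Differences of bright members from groups that hold these arrays include this shift. The median over all genes ran from 5.57 to 6.13 between arrays and serves below as the mark of a clear signal. Epithelial markers averaged 11.52 to 12.03 on every array. Of 12 mesenchymal markers 2 passed the array median on any array, as did 1 of 7 endothelial, 1 of 6 measured immune and 2 of 5 measured ciliated cell markers.

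Most members were either above the array median on every array or above it on none. On all 14 arrays 17 members lay above the array median, on some arrays 5 and on none 35. The shares were 29.8% of members above it throughout and 61.4% never above it, against 41.8% and 41.9% of all genes. Among Fox genes 15 of 41 were always above it and 26 never, with none in between. Among Sox genes only Sox4 and Sox13 were always above it, 9 never were, and Sox5, Sox6, Sox7, Sox12 and Sox14 passed it on some arrays.

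**Figure D1:**
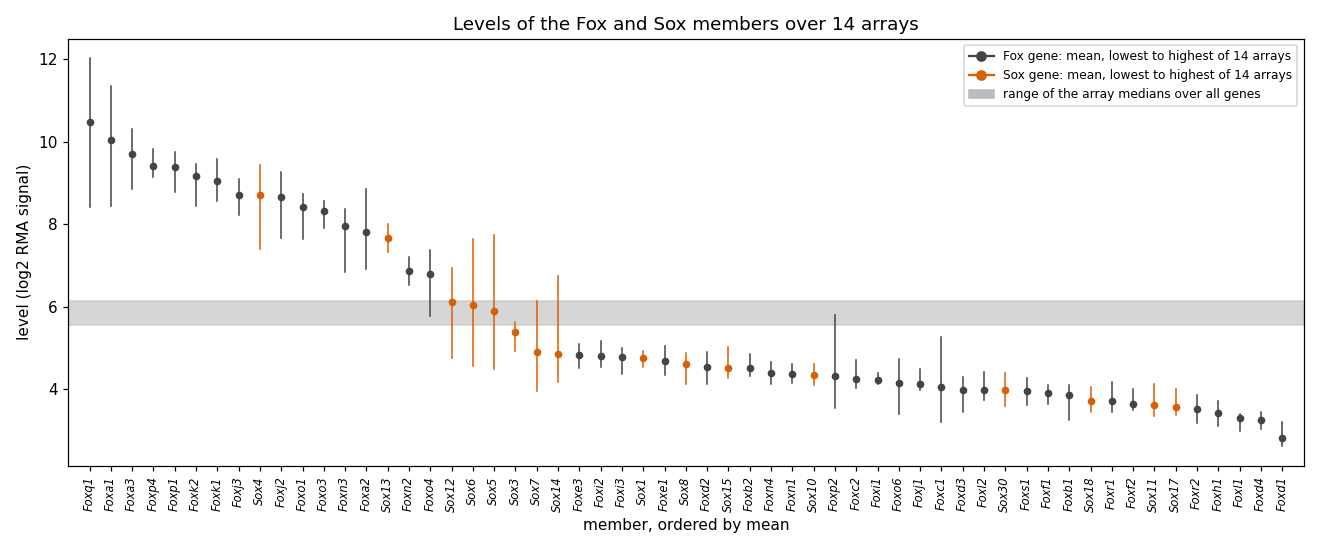
Level of each of the 57 members in log2 RMA signal, ordered by mean, with a dot for the mean and a line for the lowest to highest of 14 arrays, Fox genes in grey and Sox genes in orange. The grey band is the range of the array medians over all genes, 5.57 to 6.13, and the long lines in and below it belong to Sox6, Sox5, Sox12, Sox7, Sox14, Foxp2 and Foxc1.

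Foxq1, a forkhead factor known for its part in mucin expression of gastric surface cells, had the highest mean of the members, 10.48. Its SC values were 10.62 and 10.43 on the Cdx2null SI SC arrays, 10.76 and 10.30 on the control Sto SC arrays and 10.39, 9.72 and 9.45 on the control SI SC arrays. In organoids it read 11.43 on Sto organoids in Sto medium and 12.02 and 11.77 on those in SI medium, against 10.88 on SI organoids in Sto medium and 11.02, 9.58 and 8.43 on those in SI medium. The Sto organoids were the highest arrays of all, the control Sto and control SI SCs overlapped, and the Cdx2null SI SCs lay just above the control SI SCs. A second Foxq1 probe set was dimmer, with a mean of 7.19, and on it the groups overlapped. It read 6.78 and 7.82 on the Cdx2null SI SC arrays, against 6.49, 6.95 and 6.45 on the control SI SC arrays, and 2 of the Sto organoids, at 7.32 and 7.37, lay below 2 of the SI organoids, at 7.88 and 7.41.

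Of the FoxA genes, Foxa1 had a mean of 10.05, Foxa3 of 9.69 and Foxa2 of 7.82, and all were above the array median throughout. Foxa1 read 10.22 and 10.38 on the Cdx2null SI SC arrays, 10.22 and 10.27 on the control Sto SC arrays and 9.63, 9.78 and 8.61 on the control SI SC arrays. In organoids Foxa1 read 10.79 on Sto organoids in Sto medium and 11.16 and 11.34 on those in SI medium, against 10.04 on SI organoids in Sto medium and 10.55, 9.32 and 8.43 on those in SI medium. The lowest Foxa1 values were those of control SI SCs 3 and SI organoids SI med 3, the arrays exported differently. Foxa3 read 10.07 and 10.15 on the Cdx2null SI SC arrays, 10.30 and 9.96 on the control Sto SC arrays and 9.59, 9.50 and 9.38 on the control SI SC arrays. In organoids Foxa3 read 9.36 on Sto organoids in Sto medium and 10.18 and 9.66 on those in SI medium, against 9.95 on SI organoids in Sto medium and 9.73, 9.04 and 8.85 on those in SI medium. Foxa3 kept the Cdx2null and Sto SC arrays above every control SI SC array, while its organoid groups overlapped.

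The FoxP genes with high means varied less, Foxp4 over 0.69 and Foxp1 over 0.98 log2 units. Foxp4, a transcriptional repressor of foregut and lung development, read 9.57 and 9.40 on the Cdx2null SI SC arrays, 9.45 and 9.16 on the control Sto SC arrays and 9.61, 9.54 and 9.14 on the control SI SC arrays, and 9.44 on Sto organoids in Sto medium and 9.22 and 9.15 on those in SI medium, against 9.83 on SI organoids in Sto medium and 9.44, 9.52 and 9.34 on those in SI medium. Its close relative Foxp1 had 9.48 and 9.69 on the Cdx2null SI SC arrays, 9.76 and 9.64 on the control Sto SC arrays and 9.60, 9.41 and 8.79 on the control SI SC arrays, and 9.17 on Sto organoids in Sto medium and 9.58 and 9.62 on those in SI medium, against 9.03 on SI organoids in Sto medium and 9.68, 8.99 and 8.90 on those in SI medium. The lowest Foxp1 value was again on control SI SCs 3.

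The FoxK factors, which act in autophagy and metabolism, were high on every array. Foxk2 read 9.32 and 9.37 on the Cdx2null SI SC arrays, 9.20 and 9.23 on the control Sto SC arrays and 9.43, 9.45 and 9.33 on the control SI SC arrays, and 9.18 on Sto organoids in Sto medium and 8.81 and 9.16 on those in SI medium, against 9.16 on SI organoids in Sto medium and 9.39, 8.73 and 8.45 on those in SI medium. Foxk1 read 9.20 and 9.03 on the Cdx2null SI SC arrays, 8.85 and 9.13 on the control Sto SC arrays and 9.59, 9.39 and 8.56 on the control SI SC arrays, and 9.09 on Sto organoids in Sto medium and 9.03 and 8.77 on those in SI medium, against 9.17 on SI organoids in Sto medium and 8.78, 9.22 and 8.83 on those in SI medium. Neither had an unadjusted p under 0.05 in any comparison, and the lowest value of either gene was 8.45.

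Foxj3 and Foxj2 were strongly expressed, whereas Foxj1, the master factor of motile cilia, averaged 4.12 and never rose above 4.49. Foxj3 had 9.01 and 8.84 on the Cdx2null SI SC arrays, 8.94 and 8.86 on the control Sto SC arrays and 9.10, 8.75 and 8.32 on the control SI SC arrays, and 8.80 on Sto organoids in Sto medium and 8.34 and 8.39 on those in SI medium, against 8.66 on SI organoids in Sto medium and 8.82, 8.95 and 8.23 on those in SI medium. It too had no unadjusted p under 0.05 in any comparison. Sox4, a SoxC factor of progenitors that also acts in Wnt signalling, read 9.16 and 9.01 on the Cdx2null SI SC arrays, 9.44 and 8.76 on the control Sto SC arrays and 8.92, 8.91 and 8.27 on the control SI SC arrays. In organoids Sox4 read 9.01 on Sto organoids in Sto medium and 7.39 and 8.57 on those in SI medium, against 9.32 on SI organoids in Sto medium and 9.32, 8.09 and 7.79 on those in SI medium. The lowest Sox4 array was 1 of the Sto organoids in SI medium, while the other array of that group overlapped the SI organoids.

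The remaining members above the median were FoxO, FoxN, SoxD and SoxC genes. Foxo1, Foxo3 and Foxo4 had means of 8.42, 8.33 and 6.80, while Foxo6 stayed at background with 4.16. Foxn3, a checkpoint repressor, averaged 7.97 and Foxn2 6.86, and the other 4 genes of the FoxN group were never above the median. Sox13 averaged 7.66 with a range of only 0.67.

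Many members known from other tissues were below the array medians throughout. Sox5, Sox6, Sox7 and Sox14 were not, and passed them on 4, 7, 1 and 1 arrays. The 10 genes of FoxC, FoxD, FoxF and FoxL, several of them mesenchymal regulators of the gut, had means between 2.82 and 4.55, with Foxd2 the highest and Foxd1 the lowest. Foxf1, Foxf2 and Foxl1, markers of the gut mesenchyme, averaged 3.91, 3.65 and 3.30 and never exceeded 4.11, 4.01 and 3.40. The 9 genes of FoxB, FoxE, FoxH, FoxI and FoxS lay between means of 3.43 (Foxh1) and 4.83 (Foxe3). The SoxE genes Sox8 and Sox10 averaged 4.62 and 4.36, and the SoxF genes Sox17 and Sox18 3.58 and 3.73. Sox15 led the pair of SoxG and SoxH genes with 4.53, and Sox3 led the SoxB genes with 5.38.

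In Cdx2null SI SCs the members with the larger differences above control SI SCs were Foxc1, the 1 call, and Sox5, Foxp2 and Sox7, together with smaller differences in the FoxA genes and Foxj2. Only Foxc1 passed the test. Calls rest on limma with Benjamini-Hochberg adjustment over 18820 genes (adjusted p under 0.05 and at least 2-fold), fitted on the 7 SC arrays. It called 1 of 57 members against 1.52% of all genes (175 higher and 112 lower). At an unadjusted p under 0.05 there were 9 members, 8 of them higher, against 11.6% of all genes, and at least 2-fold with no overlap of arrays there were 4, against 4.58%. The members' share was thus close to that of all genes, and the median difference was 0.06 over members and 0.03 over all genes.

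Foxc1, a forkhead factor of mesoderm and neural crest, read 5.0 and 5.07 on the Cdx2null SI SC arrays, 4.11 and 4.14 on the control Sto SC arrays and 3.52, 3.75 and 3.22 on the control SI SC arrays. Both Cdx2null arrays lay above every other SC array, yet below the median of all genes, at a level where RMA compresses differences. Foxc1 rose by 1.54 ± 0.18 (SE) in Cdx2null SI SCs over control SI SCs, a 2.91-fold difference (limma, adjusted p = 0.0105). The rise was of like size without either Cdx2null array, at 1.57 without the first and 1.51 without the second, where the adjusted p was 0.0826. With sex of the array as a term it was 1.28 (adjusted p = 0.0579). The array labelled SI organoids SI med 1 had the highest Foxc1 of all, 5.26. Foxq1, Foxf2 and Foxc1 are consecutive protein-coding genes of chromosome 13, and of these Foxf2 stayed between 3.50 and 4.01 on all arrays.

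Sox5, a SoxD factor best known from chondrocytes and neurons, read 5.81 and 7.75 on the Cdx2null SI SC arrays, 7.57 and 7.32 on the control Sto SC arrays and 5.21, 5.40 and 5.29 on the control SI SC arrays. Foxp2, a repressor known from the brain and the developing airway and gut, read 4.39 and 5.81 on the Cdx2null SI SC arrays, 5.24 and 5.20 on the control Sto SC arrays and 3.88, 3.54 and 3.87 on the control SI SC arrays. For both genes the second Cdx2null array lay above the control Sto arrays, and the array labelled Cdx2null SI SCs 1 was nearer to the control SI arrays. The differences from control SI SCs were 1.48 ± 0.50 for Sox5 (adjusted p = 0.281) and 1.34 ± 0.38 for Foxp2 (adjusted p = 0.198), neither a call in limma. Without the array labelled Cdx2null SI SCs 1 they were 2.45 and 2.05, and without the other Cdx2null array 0.51 and 0.62. Each of these fits leaves 1 Cdx2null array without a replicate, so the size of either rise is not settled. The fit without the array labelled Cdx2null SI SCs 1 called 3 members, against 1.70% of all genes, and rests on that sole remaining array. The fit without the other array called neither Sox5 nor Foxp2.

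Sox7, a SoxF factor of endothelium, read 6.14 and 5.24 on the Cdx2null SI SC arrays, 4.63 and 5.99 on the control Sto SC arrays and 4.65, 4.39 and 4.60 on the control SI SC arrays. It was highest on the array labelled Cdx2null SI SCs 1 and on control Sto SCs 2, and its difference of 1.14 ± 0.42 was no call (limma adjusted p = 0.339). The endothelial markers averaged 4.17 to 4.35 on Cdx2null SI SCs, against 4.12 to 4.27 on control SI SCs, and their part in Sox7 was not tested.

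Control Sto SCs differed from control SI SCs in Foxa2, Foxj2 and Sox6. Foxa2 and Foxj2 were higher and Sox6 lower in the stomach cells, and these 3 of 57 members were called, against 2.86% of all genes (366 higher and 172 lower). At an unadjusted p under 0.05 there were 9 members, 7 higher and 2 lower, against 15.6% of all genes, and 5 were at least 2-fold apart with no overlap, against 6.25%. The median difference was 0.04 over members and 0.03 over all genes. The control SI SC arrays are the same as in the Cdx2null comparison, so both sets of differences share their error.

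Sox6, the other SoxD factor, known from muscle, cartilage and erythroid cells, read 6.71 and 5.73 on the Cdx2null SI SC arrays, 5.17 and 5.22 on the control Sto SC arrays and 7.21, 6.70 and 6.85 on the control SI SC arrays. The Sto arrays lay below every other SC array, the second Cdx2null array lay next to them and the first fell within the control SI range. Sox6 was -1.72 ± 0.30 (SE) in control Sto SCs relative to control SI SCs, which is 3.30-fold lower (limma, adjusted p = 0.0319). In Cdx2null SI SCs the difference from control SI SCs was -0.70 ± 0.30 (adjusted p = 0.439).

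Foxa2 read 7.93 and 7.58 on the Cdx2null SI SC arrays, 8.23 and 8.27 on the control Sto SC arrays and 7.30, 7.46 and 6.91 on the control SI SC arrays. The Sto arrays were the highest and the Cdx2null arrays came between the groups without overlapping either. Foxa2 rose by 1.03 ± 0.20 in control Sto SCs (adjusted p = 0.0464) and differed by 0.53 ± 0.20 in Cdx2null SI SCs (adjusted p = 0.356). Foxj2, a widely expressed forkhead activator, read 8.77 and 8.98 on the Cdx2null SI SC arrays, 9.15 and 9.07 on the control Sto SC arrays and 8.33, 8.07 and 7.66 on the control SI SC arrays. The order of its groups was that of Foxa2. It rose by 1.09 ± 0.21 in control Sto SCs (adjusted p = 0.0462) and differed by 0.85 ± 0.21 in Cdx2null SI SCs (adjusted p = 0.145).

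With sex of the array as a term none of the 3 was called, with differences of 0.80 for Foxa2 (adjusted p = 0.276) and 1.04 for Foxj2 (adjusted p = 0.237), and an adjusted p of 0.206 for Sox6. With the replicate number as a block Foxa2 and Foxj2 lost their calls, at 0.88 and 0.91 (adjusted p = 0.0638 and 0.0545), and Sox6 kept its own, at -1.75 (adjusted p = 0.0471). The 3 calls were close to the threshold and none held without any 1 of the 5 control arrays. Without control SI SCs 3 the difference was 0.88 for Foxa2 and 0.91 for Foxj2, under 2-fold, and -1.75 for Sox6 (adjusted p = 0.0924). Sox5 differed most of all members, by 2.14 ± 0.50, and missed the adjusted threshold with the shared spread (adjusted p = 0.0765), as did Foxp2 with 1.46 ± 0.38 (adjusted p = 0.107). Fitted on the control groups alone, without the unequal Cdx2null arrays, both passed, with adjusted p = 0.00241 for Sox5 and 0.00976 for Foxp2, and the calls were then Foxp2, Sox5 and Sox6.

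**Figure D2:**
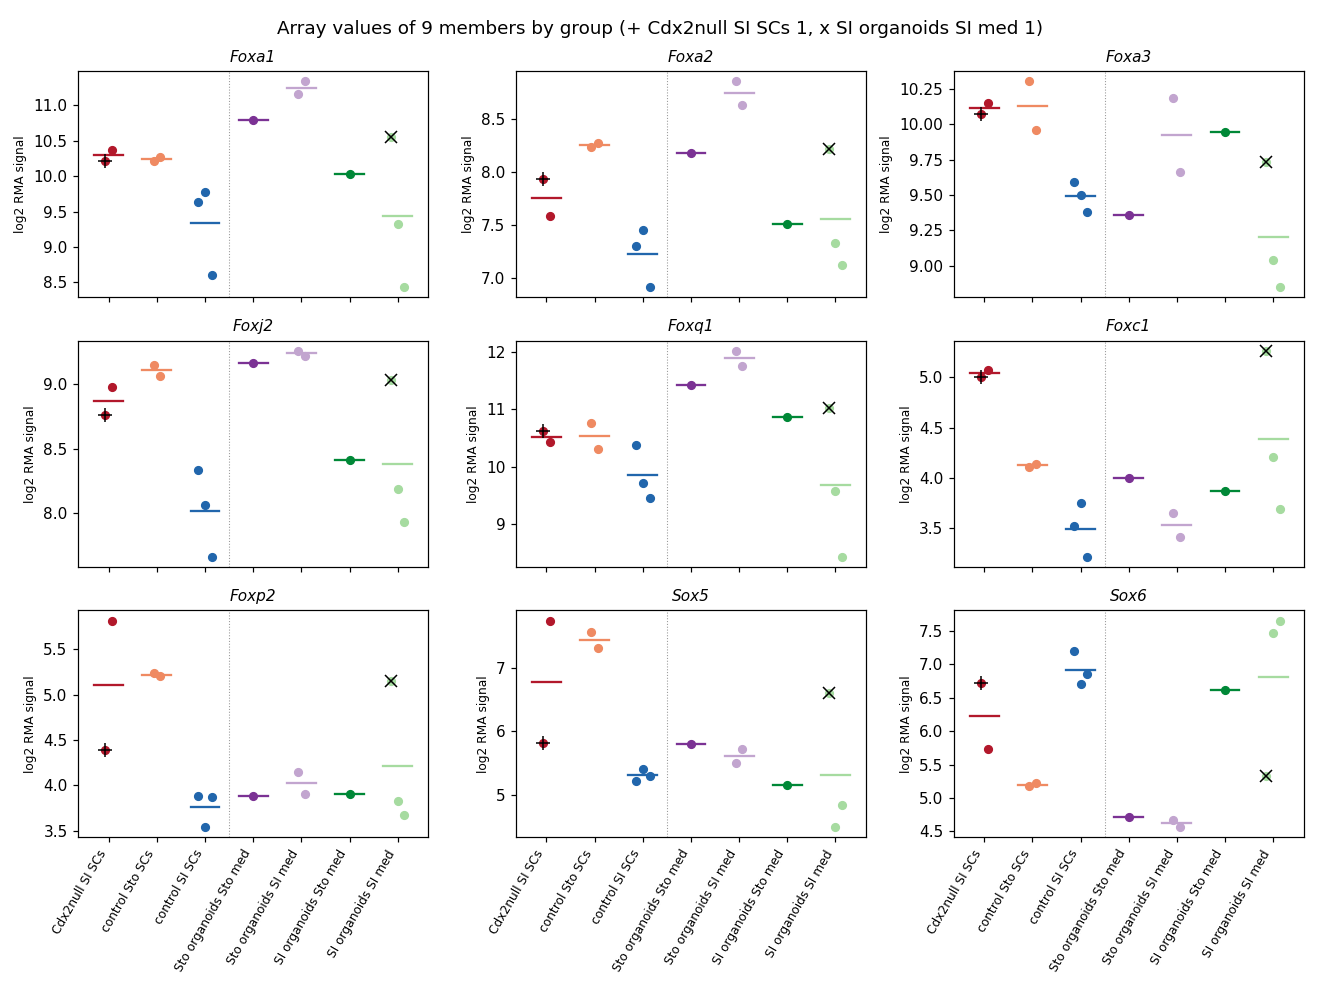
Level in log2 RMA signal of 9 members on each array, by group, with a line at the group mean. A plus marks the array labelled Cdx2null SI SCs 1 and a cross SI organoids SI med 1, whose Sox6 of 5.32 lies with the stomach arrays and apart from the other SI organoids.

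To place the Cdx2null arrays, each value was put on a scale with 0 at the mean of control SI SCs and 1 at the mean of control Sto SCs, for the 8 members at least 0.5 log2 units apart with no overlap. Foxa1 stood at 0.97 and 1.14 on the Cdx2null arrays, Foxa3 at 0.91 and 1.03 and Foxj2 at 0.69 and 0.88. Both Cdx2null arrays were thus alike and near the stomach level for Foxa1 and Foxa3, while for Foxj2 both lay below the control Sto SC arrays. The control SI SC arrays spread widely on this scale for Foxa1, at 0.32, 0.48 and -0.81, and less for Foxa3, at 0.16, 0.02 and -0.18. The lowest in both was control SI SCs 3, which drew the 0 point down. Foxa2 stood at 0.69 and 0.35, and Foxc1, at 2.40 and 2.50, was well beyond the stomach level on both. The arrays parted for Sox5 at 0.24 and 1.14, for Foxp2 at 0.43 and 1.41 and for Sox6 at 0.12 and 0.69. For these 3 genes the array with the Cdx2 signal was the one nearer to intestine, and the part of that signal in the difference was not tested.

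**Figure D3:**
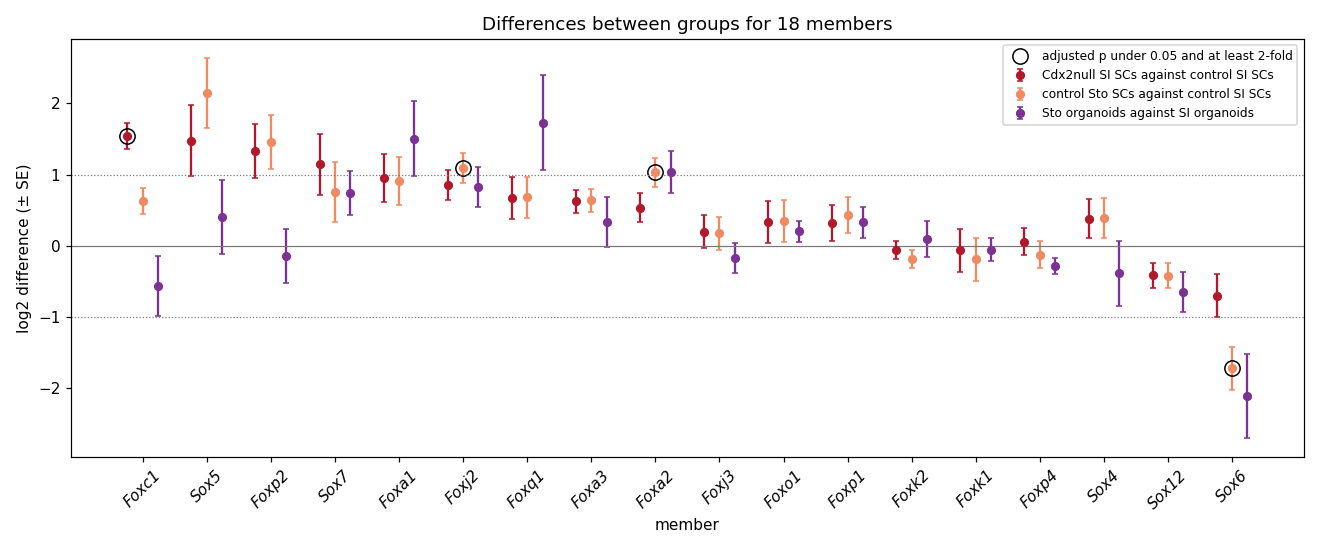
Difference in log2 RMA signal with its SE for 18 members, in Cdx2null SI SCs over control SI SCs (red), control Sto SCs over control SI SCs (orange) and Sto organoids over SI organoids (purple). Rings mark the 4 limma calls, Foxc1 in red and Foxj2, Foxa2 and Sox6 in orange, and dotted lines mark 2-fold.

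Promoter sequences are shown for Sox5 and Sox6, whose differences between stomach and intestinal SCs had opposite signs, and for Foxa1, the strongest FoxA gene. They run 5′ to 3′ on the gene's strand over 250 bases before and 50 after the start that RefSeq gives on GRCm38.p6. Capitals mark matches on either strand to the letters TTTAT (Cdx-type), TGTTTNC (forkhead) and ACAAT (Sox), of which none overlapped another. Sox5 has 1 listed start, at chr6:143947057-143947356 (minus strand), Foxa1 has 1, at chr12:57546062-57546361 (minus strand), and Sox6 has 6, of which the most upstream is printed, at chr7:116038695-116038994 (minus strand).
Sox5: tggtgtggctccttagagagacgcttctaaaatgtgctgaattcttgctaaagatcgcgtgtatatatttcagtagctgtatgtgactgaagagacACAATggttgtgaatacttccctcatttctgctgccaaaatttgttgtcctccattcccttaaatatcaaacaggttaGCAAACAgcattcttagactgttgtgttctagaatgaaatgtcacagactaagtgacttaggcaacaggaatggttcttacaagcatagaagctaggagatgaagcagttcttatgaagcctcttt
Sox6: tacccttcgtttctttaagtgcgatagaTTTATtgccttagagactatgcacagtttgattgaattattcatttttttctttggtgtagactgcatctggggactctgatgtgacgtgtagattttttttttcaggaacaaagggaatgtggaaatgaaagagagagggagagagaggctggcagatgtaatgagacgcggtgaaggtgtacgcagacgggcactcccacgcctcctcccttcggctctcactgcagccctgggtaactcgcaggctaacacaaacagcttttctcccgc
Foxa1: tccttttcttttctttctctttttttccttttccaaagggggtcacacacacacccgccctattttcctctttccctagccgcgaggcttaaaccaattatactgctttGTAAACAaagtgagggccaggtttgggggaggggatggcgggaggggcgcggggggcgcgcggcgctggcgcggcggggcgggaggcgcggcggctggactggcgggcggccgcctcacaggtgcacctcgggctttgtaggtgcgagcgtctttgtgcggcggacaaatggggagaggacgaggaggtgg
Sox5 holds 1 forkhead and 1 Sox match, Sox6 holds 1 Cdx-type match and Foxa1 holds 1 forkhead match. The first listed Foxa2 promoter and that of Foxj2 hold none. The Cdx-type letters occur in 40.0% of 32851 promoters of this length, the forkhead letters in 20.5% and the Sox letters in 31.0%, so a match describes the letters alone. Of 47 promoters listed for 38 members, 13 hold the Cdx-type letters, 11 the forkhead letters and 10 the Sox letters.

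Cdx2null SI SCs and control Sto SCs were compared to ask where the mutant cells still differed from stomach. No gene was called by limma (0% of all genes), and 2 members and 1.52% of all genes had an unadjusted p under 0.05. The equal-variance test of the methods, unadjusted and at least 2-fold, called 0 members, against 0.0797% of all genes. The 2 members were Foxc1, 0.91 ± 0.20 higher in Cdx2null SI SCs, and Sox6, 1.02 ± 0.33 higher, both with no overlap of arrays and both with an adjusted p of 1. Without the array labelled Cdx2null SI SCs 1 the Sox6 difference was 0.53.

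Among whole organoids, Foxa1, Foxa2, Foxq1 and Foxj2 had higher and Sox6 lower means in Sto organoids than in SI organoids, none a call with all arrays, while for Sox5 and Foxp2 the groups overlapped, for Sox5 only through the array labelled SI organoids SI med 1. With all 7 organoid arrays and medium as a term, limma called no gene (0% of all genes), and 6 members had an unadjusted p under 0.05, against 13.8% of all genes. On the organoids of SI medium alone 1.41% of all genes were called, and 0 members. At least 2-fold apart with no overlap were 3 members, Foxa1, Foxq1 and Sox6, against 2.81% of all genes.

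Sox6 read 4.72 on Sto organoids in Sto medium and 4.67 and 4.57 on those in SI medium, against 6.62 on SI organoids in Sto medium and 5.32, 7.47 and 7.65 on those in SI medium. The Sto organoids were the lowest arrays of the series and the array labelled SI organoids SI med 1 came next among organoids. The difference was -2.11 ± 0.59 (adjusted p = 0.275). Without that array it was -2.59 (adjusted p = 0.0123), and Sox6 was then the 1 member called, against 1.97% of all genes. Members at least 2-fold apart with no overlap were then 5, Foxa1, Foxa2, Foxj2, Foxq1 and Sox6, against 7.08% of all genes.

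Foxa2 read 8.18 on Sto organoids in Sto medium and 8.86 and 8.63 on those in SI medium, against 7.51 on SI organoids in Sto medium and 8.22, 7.33 and 7.13 on those in SI medium, with 1 overlap, from the array labelled SI organoids SI med 1. Foxj2 read 9.17 on Sto organoids in Sto medium and 9.26 and 9.22 on those in SI medium, against 8.41 on SI organoids in Sto medium and 9.03, 8.19 and 7.93 on those in SI medium, without overlap. The differences were 1.04 ± 0.30 for Foxa2, 0.83 ± 0.28 for Foxj2, 1.51 ± 0.52 for Foxa1 and 1.73 ± 0.67 for Foxq1, with adjusted p of 0.284, 0.308, 0.315 and 0.346 in that order.

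Sox5 read 5.80 on Sto organoids in Sto medium and 5.50 and 5.72 on those in SI medium, against 5.15 on SI organoids in Sto medium and 6.61, 4.49 and 4.83 on those in SI medium. Foxp2 read 3.89 on Sto organoids in Sto medium and 4.15 and 3.91 on those in SI medium, against 3.91 on SI organoids in Sto medium and 5.15, 3.82 and 3.68 on those in SI medium. For both the Sto organoids were far below the control Sto SCs, and the highest organoid array was SI organoids SI med 1. Sox7 read 5.86 on Sto organoids in Sto medium and 4.74 and 4.94 on those in SI medium, against 4.51 on SI organoids in Sto medium and 4.97, 3.97 and 4.09 on those in SI medium, and Foxc1 read 4.00 on Sto organoids in Sto medium and 3.65 and 3.41 on those in SI medium, against 3.87 on SI organoids in Sto medium and 5.26, 4.21 and 3.69 on those in SI medium.

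**Figure D4:**
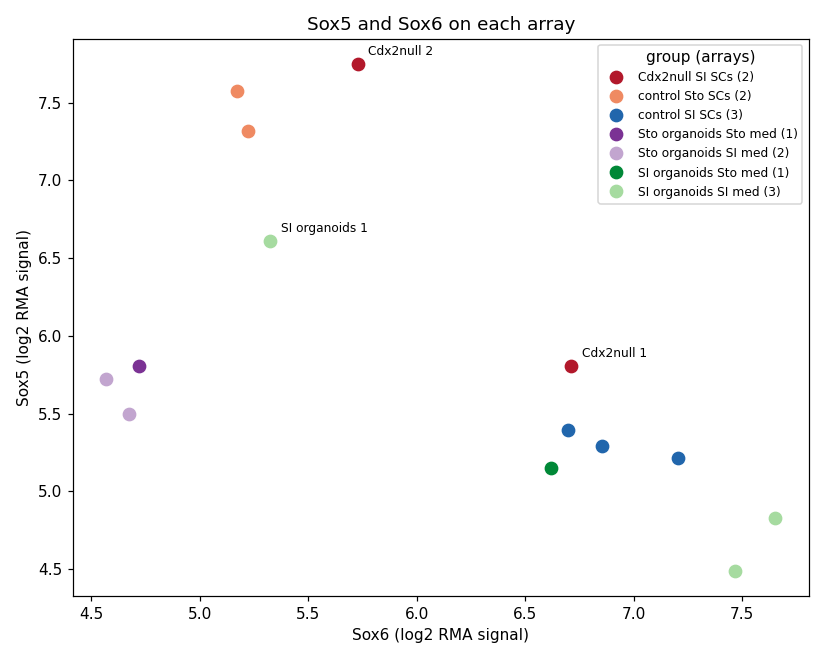
Sox5 (vertical) against Sox6 (horizontal), both in log2 RMA signal, 1 point per array, coloured by group. Control Sto SCs have high Sox5 and low Sox6, Sto organoids have both low, and control SI SCs and the other SI organoids have low Sox5 and high Sox6, while SI organoids SI med 1, at 6.61 for Sox5 and 5.32 for Sox6, lies between Sto organoids and control Sto SCs in Sox5 and just above both in Sox6.

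The origin effect in SCs was set against that in organoids of SI medium. None of 57 members was called by limma, against 0.845% of all genes, and 2 had an unadjusted p under 0.05, against 10% of all genes. These were Foxc1, with a difference between the effects of 1.48 ± 0.53 (adjusted p = 0.344), and Foxp2, with 1.64 ± 0.67 (adjusted p = 0.441). For Sox5 the difference was 1.84 ± 0.91 (adjusted p = 0.566) and for Foxq1 -1.54 ± 0.86 (adjusted p = 0.636). SI organoids SI med 1 was the highest organoid array for Foxc1, Foxp2 and Sox5, so their differences are smaller without it. Without it the mean of SI organoids in SI medium was 3.95 for Foxc1, 3.75 for Foxp2 and 4.66 for Sox5. With it these means were 4.39, 4.22 and 5.31. Without SI organoids SI med 1 Foxq1 reached -2.21 (adjusted p = 0.0495), as the 1 member called against 4.54% of all genes, so the larger stomach excess of Foxq1 in organoids rested on leaving out that array. The SCs were sorted for Lgr5-EGFP, whereas whole Sto organoids in SI medium read 4.20 and 4.32 for Lgr5, against 9.49, 9.90 and 10.28 on SI organoids in SI medium. Fewer cells of a type and less RNA per cell cannot be told apart in such bulk samples.

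Sto medium, with its Wnt, Fgf and gastrin, against SI medium gave no call in organoids (0% of all genes by limma), and 2 members had an unadjusted p under 0.05, against 9.65% of all genes. Sox12, a SoxC factor related to Sox4, read 6.45 on Sto organoids in Sto medium and 4.76 and 4.92 on those in SI medium, against 6.27 on SI organoids in Sto medium and 6.03, 5.97 and 5.49 on those in SI medium. The Sto medium arrays were above all others, most clearly in Sto organoids, with a difference of 0.99 ± 0.30 (adjusted p = 0.436). Within Sto organoids it was 1.60 and within SI organoids 0.44. The sole array of Sto organoids in Sto medium was male and those in SI medium were female, so medium and sex cannot be told apart there. Foxp4 differed by 0.33 ± 0.12 (adjusted p = 0.488).

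Sorted control SCs were compared with whole organoids to see which members differ in the stem cell fraction, and Sox12 alone had an unadjusted p under 0.05. None of 57 was called, against 1.06% of all genes, and 1 had an unadjusted p under 0.05, against 15.1% of all genes. That member, Sox12, read 6.43 and 6.33 on the Cdx2null SI SC arrays, 6.29 and 6.46 on the control Sto SC arrays and 6.94, 6.91 and 6.53 on the control SI SC arrays, so the control SI SCs were highest. It was 0.74 ± 0.13 higher in sorted SCs (limma adjusted p = 0.0286), short of 2-fold. All sorted SCs were kept in Sto medium. Against organoids in Sto medium only, the difference was 0.22 (adjusted p = 0.869), with 0 members called, against 0.0425% of all genes, and sorted minus whole was -0.07 for stomach and 0.52 for intestine. Against organoids in SI medium only, where medium and sorting cannot be told apart, it was 1.25 (adjusted p = 0.0013), the 1 member called against 3.99% of all genes.

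Genes tied to these factors by known roles were counted in the same fits. Against control SI SCs these fits called 1.52% of all genes in Cdx2null SI SCs and 2.86% in control Sto SCs. Of 17 FoxO targets 1 was called higher in Cdx2null SI SCs and 1 in control Sto SCs, both times Fbxo32, a ubiquitin ligase of muscle atrophy, by 1.49 ± 0.19 (adjusted p = 0.0144) and 1.76 ± 0.19 (adjusted p = 0.00645). The median of the list was 0.32 and 0.20 in these comparisons, against 0.03 over all genes in both. Of the 17 targets, 13 lay above the array median on every array. With dim genes left out, the median over the remaining genes was 0.14 and 0.13. The 12 measured endoderm factors besides FoxA included Cdx2 itself, and Cdx1 and Isx, which were read above as intestinal markers. Of these 12, 3 were called lower in each comparison with control SI SCs and none higher. They were the intestinal factors Cdx1, Isx and Hnf4g, which fell in Cdx2null SI SCs by 2.75 ± 0.29, 4.29 ± 0.51 and 1.55 ± 0.15 (adjusted p = 0.00739, 0.0116 and 0.00601 by limma), and in control Sto SCs by 2.51 ± 0.29, 4.54 ± 0.51 and 1.38 ± 0.15 (adjusted p = 0.0078, 0.0067 and 0.00664). None of 8 measured Wnt partners of Sox factors was called in any comparison.

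Of 13 measured mitotic genes known as FoxM1 targets none was called among SCs or for origin or medium in organoids. Bub1 was called higher in sorted SCs than in whole organoids, by 1.69 ± 0.29 (limma adjusted p = 0.0238). That fit called 1.06% of all genes. For the origin effect in SCs against organoids 1 of the 13 was called, against 0.845% of all genes. There the median of the list was 2.08, against -0.003 over all genes. The mean level of the 13 genes was 5.79 to 6.50 on Sto organoids in SI medium, against 8.46 to 9.65 on all other arrays. The probe set shared by Tex52 and Foxm1, which cannot be given to either gene, moved alike, with 5.17 and 5.95 on Sto organoids in SI medium, against 7.90 to 8.82 on the other arrays. Sox12 was lowest on these same arrays, as was Sox4 on 1 of them, and the part of cycling cells in their levels was not tested.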

How the data were processed

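RNA of each sample was hybridised to its own array, 14 in all. Per the methods, the authors ran RMA-sketch in Affymetrix Power Tools (version not given in the sources used here), which removes background, brings arrays to a common distribution and summarises probes. The deposited values are log2 signals of 35556 probe sets. All 14 columns were matched to samples by name and 0 were left over. Such a normalisation assumes like distributions on all arrays and compresses folds of dim genes, and precision is limited by how many arrays a group has. The deposited log2 values were used without further normalisation. In them control SI SCs 3 and SI organoids SI med 3 kept lower upper quartiles than the other arrays.

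Probe sets with 1 symbol in the platform annotation (21218) gave 18820 genes. Differences were fitted with limma 3.58.1 (lmFit and eBayes, R 4.3.3), 2-sided, with Benjamini-Hochberg adjustment over all genes. Errors are SEs of limma unless stated. SC comparisons used the 7 SC arrays, origin and medium in organoids the 7 organoid arrays with both as additive terms, and the remaining contrasts all 14 arrays with a mean per group. The script was tested on simulated data. Alternatives were another probe set per gene, quantile normalisation, median centring, a filter on dim genes, another eBayes setting, a replicate block, a term for sex as read from sex-linked genes, fits on fewer groups, the methods' t-test, organoids of 1 medium and leaving out arrays.

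Values on every array are given for members called in a comparison, members at least 2-fold apart with no overlap among SCs or between organoids of different origin, and the 10 members with the highest means, and other members by group. Sox12, Foxp4, Foxo6, Sox13 and Sox14 are named beside these. The members and gene lists were chosen with earlier results of these data known. Promoters came from a RefSeq table of GRCm38.p6.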

Additional observations from a re-analysis of the deposited data

How the results depend on the processing

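Limits and alternatives were counted as the number of members called. For Cdx2null SI SCs against control SI SCs that number was 1, against 1.52% of all genes. It was 0 with dim genes left out (Foxc1 is dim), against 3.94%, and 0 with a term for sex, against 1.1%. The methods' t-test called 2 at its unadjusted threshold, against 2.65%, and 0 at an adjusted one, against 0%. For control Sto SCs against control SI SCs it was 3, against 2.86% of all genes, and 1 (Sox6) after quantile normalisation, against 3.37%. With median centring it was 2 (Sox5 and Sox6), against 3.95%. It was 0 without the arrays exported differently (1.63%) and 0 without the arrays whose number another label repeats (1.47%). With a term for sex it was 0 (1.39%). The methods' t-test called 5 unadjusted, against 4.4%, and 0 adjusted, against 0%. For Sto against SI organoids it was 0, against 0% of all genes, and 1 without the arrays whose number another label repeats, against 1.97%. For sorted SCs against whole organoids it was 0, against 1.06%, and 1 with organoids in SI medium only, against 3.99%. Leaving out 1 array at a time gave 1 to 3 members for Cdx2null against control SI SCs, 0 to 3 for control Sto against control SI SCs, 0 to 1 for Sto against SI organoids and 0 to 1 for the origin effect in SCs against organoids. The share of all genes called moved in these fits as well. Where leaving out an array left 1 array in a group, that array was assumed to vary like the other groups. The causes were not tested.

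Samples of the SC groups share replicate numbers in their titles, but no source says what the number marks. The difference between arrays 1 and 2 of a group was correlated over genes between groups. The correlation was 0.23 to 0.38 between SC groups and -0.06 between Sto and SI organoids in SI medium. The latter rests on SI organoids SI med 1, the array that went against its label. With a replicate block 1 member, Sox6, was called for control Sto SCs against control SI SCs, against 2.66% of all genes. The other comparisons kept their number of called members.

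Members at least 2-fold apart with no overlap were counted again without single arrays after seeing the data. For control Sto against control SI SCs they were 3 without control SI SCs 3, in place of 5, against 5.9% of all genes. For Sto against SI organoids they were 5 without SI organoids SI med 1, in place of 3, against 7.08%. Median centring moved the median of all genes in Cdx2null against control SI SCs to -0.12, from 0.03, and its calls to 239 higher and 239 lower, beside 175 and 112, and in control Sto against control SI SCs to 391 and 352, beside 366 and 172. Quantile normalisation gave 359 and 276 there. Among the named differences of single members, 524 results under alternatives kept the direction and the side of the threshold. A call was ended by 39 and made by 15, and none turned the direction. Some alternatives repeat the same fit or cannot move the difference, and the members were named partly for large differences. The tally is thus no measure of stability.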

Other observations

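Sox14, a SoxB repressor known from the nervous system, stood out on a single array and was named after its values were seen. It read 6.74 on the array labelled Cdx2null SI SCs 1, which keeps a Cdx2 signal, and 4.44 on the other Cdx2null SI SC array, against 4.90, 4.78 and 5.02 on the control SI SC arrays. On the other 13 arrays of the series it never exceeded 5.02. With the other Cdx2null array left out Sox14 was the 1 member that limma called for Cdx2null SI SCs against control SI SCs, and the sole array behind it has no replicate. Sox7 had its highest value on the same array, 6.14.

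Foxq1, Foxk1 and Foxn3 each had a second probe set. Those of Foxn3 had like means, 7.97 and 7.74, whereas those of Foxk1 had 9.04 and 4.23 and those of Foxq1 10.48 and 7.19. On the dimmer Foxq1 probe set the Sto organoid in Sto medium was highest, at 8.61, and the Sto organoids in SI medium, at 7.32 and 7.37, did not lie above all SI organoids, which read 7.88 in Sto medium and 7.41, 6.93 and 5.80 in SI medium.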
